A study of Homo sapiens with 40 samples.

Results

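RNA recovered from the polysomal part of sucrose density gradients was compared with the unfractionated input RNA of the same kind of cells, HEK293 cells transfected with a control siRNA. The members are the 8 libraries whose labels name the control siRNA and either the polysomal pool (gradient fractions 6 to 11) or the gradient input, 4 of each, out of 40 libraries in the series. HEK293 is a human embryonic kidney cell line with neuronal features that grows readily and takes up siRNA well. All 8 libraries came from cells that received the non-targeting control siRNA, were lysed with cycloheximide in the buffer and had their nuclei spun out, and RNA of input and fractions alike was precipitated with lithium chloride before poly(A)-selecting, stranded library preparation. The series also holds the same fractions from cells depleted of CNOT1, on which the Ccr4-Not deadenylase complex is assembled, a subpolysomal pool (fractions 1 to 5) for each siRNA, and other experiments that are not used here. A single cell line stands for all of this, and nothing in the labels says whether the 4 replicates of a group were separate cultures, so the p-values measure only the spread between these libraries, which may be technical.

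In a sucrose gradient an mRNA sediments further the more ribosomes it carries, so the heavy fractions hold mRNAs that are loaded with several ribosomes, while free mRNA, mRNA with a single ribosome and noncoding RNA stay near the top. Initiation decides for many mRNAs whether they enter the heavy fractions: iron regulatory proteins hold ferritin mRNAs out of them, and mRNAs with a terminal oligopyrimidine (TOP) start, such as those of ribosomal proteins, move in and out of them with growth signals. The length of the coding sequence also counts, since a short open reading frame has room for few ribosomes. The question of this comparison is which transcripts were under- or over-represented among polysomal RNA relative to all cytoplasmic RNA when CNOT1 had not been depleted.

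Total counts were 35795122 to 37663901 in the input libraries and 23588645 to 27255088 in the polysomal ones. Levels are given as CPM (counts scaled to a common library total) after TMM scaling over the 8 libraries, and differences as log2 of polysomal over input from edgeR's quasi-likelihood test, with Benjamini-Hochberg adjusted p-values (FDR) and a call at an FDR below 0.05. Markers of HEK293 cells, the neurofilaments NEFL and NEFM and vimentin leading them, summed to 5350 to 5780 CPM in the input and 4720 to 5670 CPM in the polysomal libraries, with NEFH and PAX2 near 0. Markers of blood, liver and endothelium were at or near 0, and the 8 markers of other cell types summed to at most 17.6 CPM, nearly all of it from COL1A1 and COL3A1. The libraries were made from equal masses of RNA, so a value is a share of one fraction's RNA. A lower share in polysomes and a higher share of other transcripts cannot be told apart, nor can fewer cells of a type and less RNA per cell.

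One of the 8 libraries went against its label. CNOT1 itself was 639.9, 665, 618 and 595 CPM in the input libraries and 456, 469, 26.0 and 465 CPM in polysomal libraries 1 to 4, so that 1 polysomal library of the control label, replicate 3, had the CNOT1 level of a depleted sample. On the scale common to all 24 gradient libraries its CNOT1 level was 28.3 CPM, beside 24 to 31.6 CPM in CNOT1 siRNA polysomal replicates 1, 2 and 4, while the library labelled CNOT1 siRNA polysomal replicate 3 had 631 CPM. The same crossing was seen for FAM73A, PVRL4 and DDN, which differed between the siRNAs in the input. PVRL4 was 6.17 to 7.02 CPM in the other control polysomal libraries and 40.5 CPM in replicate 3, and DDN was 5.64 to 7.25 against 21 CPM. The labels were kept. Values are from all 8 libraries unless they are given as without polysomal replicate 3. Across genes, log CPM of that library correlated with the other polysomal libraries at 0.958 to 0.963, whereas the other 3 correlated with each other at 0.986 to 0.993 and the inputs at 0.995 to 0.997.

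**Figure D1:**
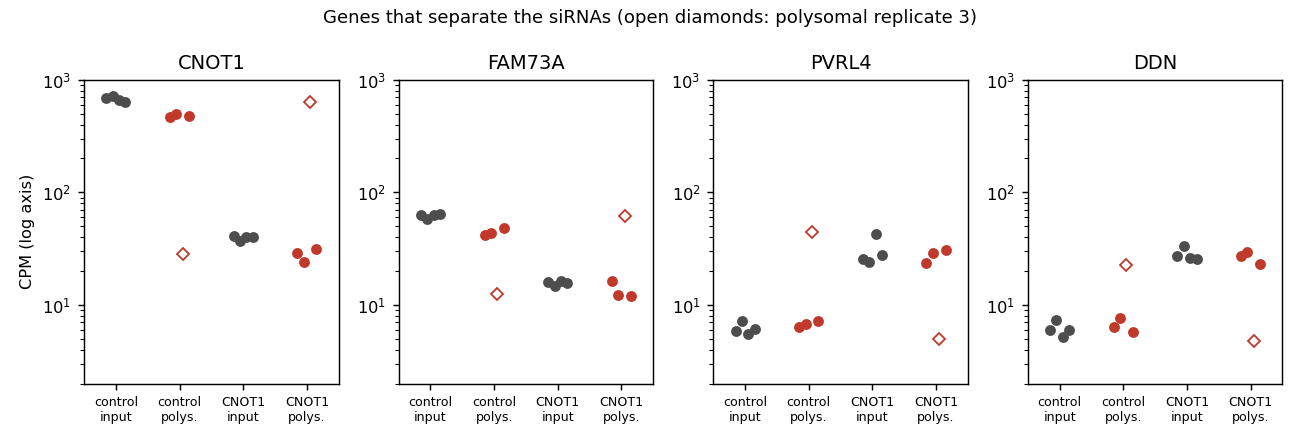
CPM (log axis, scaled over the 24 gradient libraries) of CNOT1, FAM73A, PVRL4 and DDN in each input (grey) and polysomal (red) library of the control and CNOT1 siRNA groups, 4 libraries a group, with polysomal replicate 3 as open diamonds. For all 4 genes the open diamond of each siRNA lies with the other siRNA's libraries, as for CNOT1 at 28.3 CPM under the control label and 631 CPM under the CNOT1 label.

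Polysomal RNA differed from input RNA at many genes, mostly by small amounts, and the large differences went nearly all one way. Among the 15136 genes tested, polysomal RNA had a higher share of 913 (6.03%) and a lower share of 1166 (7.7%). At least 2-fold differences were called for 17 higher genes (0.112%) and 376 lower genes (2.48%). Of the 17, only the clone-named transcript CTC-444N24.11 had a mean of 10 CPM or more, against 95 of the 376, and the 376 were made up of 119 nuclear protein-coding genes, 131 genes of other annotated types and 126 symbols with no place in the annotation used. Without polysomal replicate 3, 2974 of 15617 genes were higher (19%) and 2957 lower (18.9%), 28 (0.179%) and 484 (3.1%) of them by at least 2-fold. Of the 2079 calls made with all 8 libraries, 2078 were made in the same direction without it and 0 in the opposite one. The common dispersion fell from 0.0308 to 0.00933 when it was left out. All 4 polysomal values lay above all 4 input values for 1748 genes (11.5%) and below them for 1949 (12.9%). Fewer genes were called when another library was left out: 154 to 242 higher and 525 to 595 lower without any single input library, 357 and 652 without polysomal replicate 2, and 530 and 972 without polysomal replicate 1.

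The libraries of the CNOT1 siRNA group share no sample with these 8 and give the same contrast in other cells. Of the 2079 called genes, 2038 (98%) had the same sign there, against 73.1% of all genes tested in both. With the polysomal replicate 3 of each siRNA left out, 5794 of 5870 called genes (98.7%) had the same sign, against 84.7% of all genes. A test of the difference itself, the polysomal to input ratio in control against CNOT1 siRNA cells over 16 libraries, called 0 of 15757 genes by edgeR and 0 by DESeq2. At an unadjusted p below 0.05, edgeR listed 214 genes with a higher and 433 with a lower ratio in control cells, and DESeq2 listed 689 in all. Without both libraries 3, edgeR still called 0 of 16266 genes, with 636 at an unadjusted p below 0.05 and a smallest FDR of 0.206.

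Ferritin mRNAs were among the nuclear protein-coding transcripts of 10 CPM or more with the largest decreases in polysomal RNA. FTL encodes the light and FTH1 the heavy chain of ferritin, the iron storage shell, and both carry in the 5′ UTR an iron-responsive element, a hairpin that iron regulatory proteins bind when iron is scarce and that blocks initiation. FTL was 430.3, 343, 362 and 475 CPM in the input libraries and 120.5, 90.0, 63.1 and 129 CPM in polysomal libraries 1 to 4. FTH1 was 366, 324, 312 and 388 CPM in the input and 112, 100.5, 50.9 and 129 CPM in polysomal RNA. The groups did not overlap for either gene, but the choice of genes with the largest decreases required this. Replicate 3 was the lowest polysomal library for both. The log2 difference was -2.0 ± 0.22 (SE, FDR 0.00127) for FTL and -1.82 ± 0.24 (FDR 0.00259) for FTH1, and -1.85 ± 0.14 and -1.62 ± 0.10 without replicate 3. Both calls held with any of the 8 libraries left out.

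The elements are shown because ferritin is the textbook case of a transcript kept off ribosomes by a sequence; whether the element acted here was not tested. In the GENCODE transcripts on GRCh37, a search for the letters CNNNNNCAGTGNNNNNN, with the 5 letters before CAGTGN pairing with the 5 after it (Watson-Crick or G with T), found it once in each ferritin 5′ UTR, in exon 1 of 4. The FTL element lies at chr19:49468593-49468619 on the plus strand and the FTH1 element at chr11:61735047-61735073 on the minus strand. The sequences below run 5′ to 3′ on the mRNA strand as DNA letters, with the unpaired C and the CAGTG of the loop in capitals, and add those of ferroportin (SLC40A1, the iron exporter, chr2:190445388-190445414) and the first of 4 such matches in the 3′ UTR of the transferrin receptor (TFRC, chr3:195777851-195777877), where the element guards the mRNA from decay.
FTL: tcttgCttcaaCAGTGtttggacggaa
FTH1: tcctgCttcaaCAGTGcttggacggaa
SLC40A1: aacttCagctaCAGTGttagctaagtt
TFRC: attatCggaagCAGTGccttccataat

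The letters were found in 13 of 12705 5′ UTRs of tested genes (0.102%) on the mRNA strand and in 8 (0.063%) on the other strand. Outside the iron list 9 genes had them, of which ENC1 was lower and DUSP9 higher, with a median log2 difference of -0.24. The other iron genes differed far less than ferritin. Of the 8 tested members of the list, FTL and FTH1 were called lower (25%, against 7.7% of all genes) and 0 higher, with a median log2 difference of -0.41 against 0.04 for all genes. Without replicate 3 the lower calls were 6, where 18.9% of all genes were lower. TFRC stood at 707, 635, 664 and 697 CPM in the input and 470.1, 418, 728 and 494 CPM in polysomal RNA, so that replicate 3 alone reached the input level, and its log2 difference went from -0.36 (FDR 0.155) to -0.57 (FDR 0.00014) without it. SLC40A1 was near 3 CPM in the input and gave -0.57 (FDR 0.0584) and -0.61 (FDR 0.0202) without replicate 3. Many processed copies of the ferritin genes exist in the genome, so reads may be split between copies.

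The mRNAs with the longest coding sequences were also depleted, and these included the largest decrease among coding genes of 10 CPM or more. PRKDC, the catalytic subunit of the DNA-dependent protein kinase, stood at 1710, 1660, 1657 and 1580 CPM in the input and 256, 211, 788 and 284 CPM in polysomal libraries 1 to 4. Replicate 3 lost the least of the polysomal libraries. All 4 lay below all inputs, which the choice of genes with the largest decreases required. The log2 difference was -2.10 ± 0.37 (FDR 0.00837) with 8 libraries and -2.74 ± 0.10 (FDR 1.3e-07) without replicate 3. DYNC1H1, the heavy chain of cytoplasmic dynein, went from 1062, 805, 926 and 694 CPM to 157, 111, 559 and 142 CPM. Its difference of -1.85 ± 0.47 (FDR 0.03) became -2.69 ± 0.15 (FDR 1.7e-06) without replicate 3, and the call was lost with any of the 7 other libraries left out (FDR up to 0.0831). FBN2, which encodes the microfibril protein fibrillin 2, was depleted alike in all libraries, from 181, 198, 173 and 163 CPM to 44, 43.9, 61.5 and 55.6 CPM, a log2 difference of -1.80 ± 0.13 (FDR 0.00029), or -1.92 ± 0.10 without replicate 3.

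Genes with coding sequences of 10000 nt or more moved the same way as a class. Of 88 tested, 43 were lower and 0 higher, with a median log2 difference of -0.71, where 7.7% of all genes were lower. Without replicate 3 the counts were 68 and 0, where 18.9% of all genes were lower. KMT2D, a histone H3 lysine 4 methyltransferase with a coding sequence of 16614 nt, was 310.3, 331, 295 and 251 CPM in the input and 239, 171, 277 and 165 CPM in polysomal RNA. Those groups overlapped through replicate 3, and its log2 difference went from -0.48 (FDR 0.0895) to -0.65 (FDR 0.0016) without it. EPRS, the glutamyl-prolyl-tRNA synthetase with a shorter coding sequence of 4539 nt, also overlapped through replicate 3, at 735, 719, 728 and 663 CPM in the input and 269.9, 281, 714 and 348 CPM in polysomal RNA, with -0.82 (FDR 0.0766) and -1.26 (FDR 6.7e-06). Of the 20 aminoacyl-tRNA synthetases 1 was lower with 8 libraries (5%, against 7.7% of all genes) and 0 higher. The list had a median log2 difference of 0.01, and its lower member was LARS, the leucyl-tRNA synthetase, at -0.50 ± 0.10 (FDR 0.0112).

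Over all protein-coding genes, polysomal representation fell with coding length beyond the middle of the range. Of all genes tested, 6.03% were higher and 7.7% lower with 8 libraries, and 19% and 18.9% without replicate 3. Genes of 300 to under 600 nt had a median log2 difference of 0.27, with 158 of 1246 higher (12.7%) and 26 lower (2.09%). Genes of 600 to under 1200 nt had a median of 0.23, with 515 of 3530 higher (14.6%) and 68 lower. Genes of 1200 to under 2400 nt had a median of 0.06, with 190 of 4769 higher (3.98%) and 251 lower (5.26%). For genes of 2400 nt and over the median was -0.15, with 15 of 2958 higher and 433 lower (14.6%). The shortest class, under 300 nt, had a median of 0.10 with 9 of 227 genes (3.96%) called each way. Without replicate 3 that class had a median of 0.26, with 103 genes higher (45.4%) and 17 lower. Without replicate 3 the contrast was sharper, with 721 genes higher and 42 lower at 300 to under 600 nt, and 59 higher and 1381 lower (46.7%) at 2400 nt and over. Spearman's rho between coding length and log2 difference was -0.42 over 12730 genes, and -0.58 without replicate 3. Genes are not independent replicates, and the lengths compared here were not separated from each other or from expression level. For total mRNA length rho was -0.45, for 3′ UTR length -0.25, for 5′ UTR length -0.09 and for the GC share of the 5′ UTR 0.16.

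Polysomal replicate 3 did not share the slope of the other libraries. Relative to the mean of the inputs, the medians of polysomal libraries 1, 2 and 4 were 0.26, 0.27 and 0.20 for the shortest class and -0.22, -0.29 and -0.24 for the longest. Replicate 3 had -0.61 for the shortest class and 0.08 for the longest. The 4 input libraries stayed between -0.03 and 0.06 in every class. A joint fit of both siRNA groups without both libraries 3 gave the CNOT1 siRNA contrast too. Its median log2 difference was 0.12 for the shortest class and -0.23 for the longest. The profile of replicate 3 thus had the slope of neither group, and the reason was not tested.

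**Figure D2:**
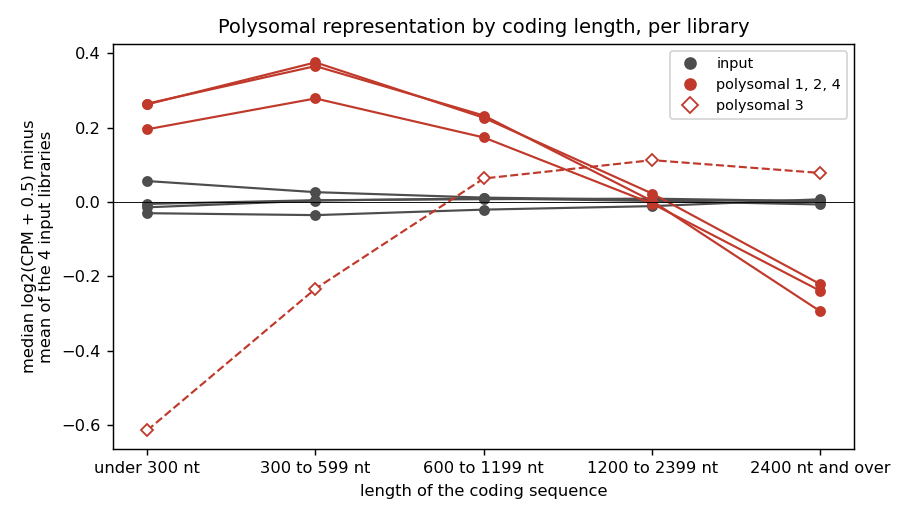
Median over genes of log2(CPM + 0.5) minus the mean of the 4 input libraries (vertical axis) in 5 classes of coding sequence length (horizontal axis), one line per library, inputs in grey and polysomal libraries in red, replicate 3 dashed with open diamonds. Polysomal libraries 1, 2 and 4 peak at 0.28 to 0.38 at 300 to under 600 nt and end at -0.22 to -0.29 at 2400 nt and over, while replicate 3 starts at -0.61 and ends at 0.08.

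Basement membrane components, most of them long secreted proteins, had a large share of lower calls. Of 19 tested collagens, laminins and related genes, 13 were lower (68.4%, against 7.7% of all genes) and 0 higher, with a median log2 difference of -0.66. Without replicate 3, 14 were lower, where 18.9% of all genes were lower. LAMC1, the laminin gamma 1 chain, stood at 488, 452, 448 and 423 CPM in the input and 228 to 289.9 CPM in the polysomal libraries. COL4A1, a collagen IV chain, stood at 184, 173, 175 and 178 CPM and then 127, 102, 96.9 and 123 CPM. Neither gene's groups overlapped, and replicate 3 did not stand apart, with log2 differences of -0.82 ± 0.10 (FDR 0.00166) for LAMC1 and -0.66 ± 0.10 (FDR 0.00526) for COL4A1 that held with any library left out. Long coding sequences run through this list, that of LAMC1 being 4830 nt and that of COL4A1 5010 nt, and the part of length in its median was not tested.

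The 3 largest decreases among called genes of 10 CPM or more were in noncoding transcripts, RN7SL1, MIR17HG and SNHG5, but without replicate 3 PRKDC and DYNC1H1 came before SNHG5. RN7SL1, the RNA of the signal recognition particle, which lacks an open reading frame, was 60.9, 43.2, 18.5 and 37 CPM in the input and 1.68, 2.67, 0.369 and 1.34 CPM in polysomal RNA. It varied over 3-fold among inputs, but the groups were far apart, and the log2 difference was -4.73 ± 0.50 (FDR 0.00127), or -4.41 ± 0.40 without replicate 3. MIR17HG, the host transcript of the miR-17-92 cluster of oncogenic microRNAs (chr13:91999940-92049846), was steadier, at 28, 30.8, 34.7 and 30.9 CPM in the input and 4.94, 3.19, 3.77 and 4.43 CPM in polysomal RNA. Its log2 difference was -2.93 ± 0.15 (FDR 4.7e-05), or -2.91 ± 0.14 without replicate 3. Replicate 3 fell inside the range of the other polysomal libraries for MIR17HG and below it for RN7SL1. The 3 tested 7SL and 7SK genes were all lower, with a median of -4.09, but copies of 7SL are near-identical and a poly(A) kit captures these RNAs only in part.

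The host genes of small nucleolar RNAs, whose spliced exons are exported but encode no conserved protein, were depleted together. Of 17 tested, 10 were lower (58.8%, against 7.7% of all genes) and 0 higher, and all 17 log2 differences were negative. Without replicate 3, 14 were lower, where 18.9% of all genes were lower. SNHG5 stood at 150.2, 118, 118 and 138 CPM in the input and 27.3, 31.5, 13.3 and 40.3 CPM in polysomal RNA, a log2 difference of -2.22 ± 0.28 (FDR 0.00202). GAS5, the growth-arrest-specific host gene, stood at 147, 134, 154 and 139.7 CPM and then 54.4, 51.3, 34.7 and 74.9 CPM, a difference of -1.42 ± 0.19 (FDR 0.00284). Replicate 3 was the lowest polysomal library for both. Its median over the list was -1.89, where the other polysomal libraries had -0.48 to -0.86. SNHG6, at -1.98 ± 0.29 (FDR 0.00376), was a further member.

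Small nucleolar and Cajal body RNAs and the long noncoding RNAs of the nucleus followed the same direction. Of 42 tested snoRNAs and scaRNAs 33 were lower (78.6%, against 7.7% of all genes) and 0 higher, with a median log2 difference of -1.80. SCARNA15 was 7.19, 7.49, 7.32 and 6.67 CPM in the input and 1.5, 1.29, 1.03 and 1.55 CPM in polysomal RNA. NEAT1, the RNA core of nuclear paraspeckles, was 196, 204, 172 and 196 CPM and then 67.5, 48.8, 48.9 and 73.2 CPM, with a log2 difference of -1.69 ± 0.15 (FDR 0.00057), or -1.62 ± 0.12 without replicate 3. These groups were well separated and replicate 3 lay within or just below the other polysomal libraries. MALAT1, a transcript of nuclear speckles, gave -0.91 ± 0.13 (FDR 0.0035). LINC00657, also called NORAD, a cytoplasmic RNA that binds Pumilio proteins, stood at 415, 424, 412 and 445 CPM and then 199.7, 209, 163 and 225 CPM, a log2 difference of -1.09 ± 0.11 (FDR 0.0009). Among 86 numbered LINC genes 9 were lower (10.5%, against 7.7% of all genes) and 0 higher, and without replicate 3 the counts were 18 lower and 7 higher of 89. Among 219 antisense genes 28 were lower (12.8%) and 2 higher, and without replicate 3 the counts were 49 and 8 of 245. Of all genes, 18.9% were lower and 19% higher without replicate 3. The lower calls of the LINC and antisense genes were thus near the share of all genes in that fit, while their higher calls were below it. Their median log2 differences without replicate 3 were -0.20 and -0.19, against 0.01 for all genes. C17orf76-AS1, the antisense gene with the most counts, gave -1.53 ± 0.30 (FDR 0.0113), or -1.28 ± 0.09 without replicate 3. The setting of strand in the authors' counting is not stated, so an antisense gene and its partner cannot be told apart.

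Transcripts of the mitochondrial chromosome, which are translated inside mitochondria, were at low levels and lower in polysomal RNA. Of 12 tested mitochondrial mRNAs 11 were lower (91.7%, against 7.7% of all genes) and 0 higher, with a median log2 difference of -2.19. MT-ND4, a complex I subunit, was 10.5, 8.08, 7.35 and 10 CPM in the input and 2.51, 2.76, 1.66 and 2.59 CPM in polysomal RNA, a log2 difference of -1.92 ± 0.20 (FDR 0.00098). MT-CO1, a cytochrome oxidase subunit, fell by less, with -0.76 ± 0.18 (FDR 0.0244) that was lost without input replicate 1, 2 or 4 or polysomal replicate 2 (FDR up to 0.0812). All mitochondrial mRNAs together took 0.00366% to 0.00472% of input counts and 0.00114% to 0.0019% of polysomal counts, and how the authors treated mitochondrial reads is not given in the sources used here.

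**Figure D3:**
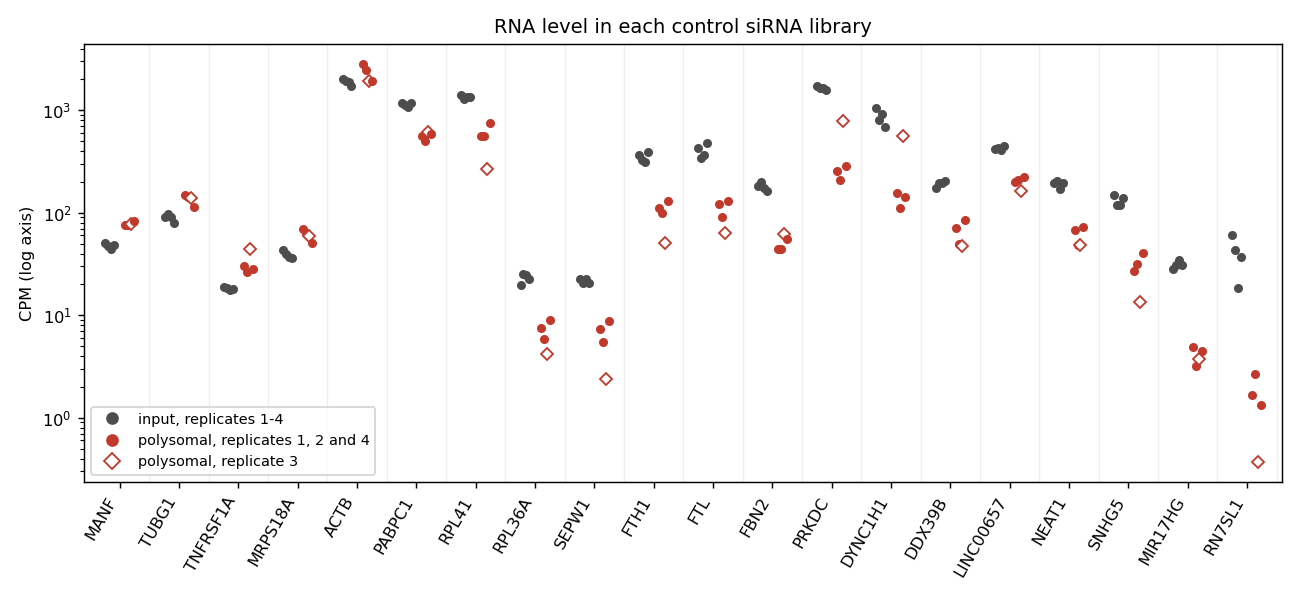
CPM (log axis, scaled over the 8 libraries) of 20 genes in each of the 4 input (grey) and 4 polysomal (red) control siRNA libraries, polysomal replicate 3 as open diamonds. From MANF to MRPS18A the polysomal libraries lie above the inputs, ACTB overlaps, and from PABPC1 to RN7SL1 all polysomal libraries lie below all inputs, with replicate 3 far above the other polysomal libraries for PRKDC and DYNC1H1, at 788 and 559 CPM.

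Ribosomal protein mRNAs are given by subunit, and whether the subunits differed was not tested. Of 50 tested genes of the large subunit 4 were lower (8%, against 7.7% of all genes) and 1 higher (2%, against 6.03%), with a median log2 difference of -0.09. Of 31 genes of the small subunit 5 were lower (16.1%) and 0 higher, with a median of -0.29 and 25 negative differences. Replicate 3 lay below the other libraries, with medians of -0.80 and -0.90, where the other polysomal libraries had -0.02 to 0.07 and -0.10 to -0.04. Without it, the medians were 0.01 and -0.11, with 8 higher and 10 lower genes in the large subunit and 3 and 6 in the small one. In that fit 19% of all genes were called higher and 18.9% lower. The genes of the large subunit took 4.42% to 4.75% of the input counts and 4.4% to 4.62% of the counts of polysomal libraries 1, 2 and 4, but 2.87% in replicate 3. Those of the small subunit took 2.98% to 3.21% of the input counts and 2.71%, 2.87%, 1.68% and 2.82% of the counts of polysomal libraries 1 to 4, so that every polysomal library lay below every input.

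RPL41, the member with the shortest open reading frame at 78 nt, was 1 of 5 ribosomal protein mRNAs called at least 2-fold lower. It stood at 1422, 1286, 1360 and 1357 CPM in the input and 558, 567, 270.1 and 746 CPM in polysomal RNA, a log2 difference of -1.34 ± 0.25 (FDR 0.00937). RPSA, which encodes a small-subunit protein first named as a laminin receptor and hosts snoRNAs in its introns, stood at 1252, 1140, 1134 and 1201 CPM and then 553, 604, 372 and 605 CPM, a difference of -1.15 ± 0.15 (FDR 0.00243). RPL36A, with 321 nt of coding sequence, gave -1.80 ± 0.21 (FDR 0.00166) from an input mean of 23.0 ± 2.47 CPM (SD, n = 4). All 3 held with any library left out, and replicate 3 was the lowest library for each. RPL7A, the large-subunit member with the most counts, stood at 2561, 2402, 2434 and 2582 CPM in the input and 2727, 3008, 1844 and 3016 CPM in polysomal RNA, with a log2 difference of 0.09 (FDR 0.729) that became 0.21 (FDR 0.0464) without replicate 3. Ribosomal protein genes have many processed pseudogenes, so their counts are uncertain where copies share reads.

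Other mRNAs of the translation apparatus with a TOP start had calls in both directions only without replicate 3. Of 25 tested, 5 were lower (20%, against 7.7% of all genes) and 0 higher, with a median of -0.08. Without replicate 3, 7 were higher and 6 lower, where 19% and 18.9% of all genes were called. PABPC1, the cytoplasmic poly(A)-binding protein, which binds an A-rich stretch in its own 5′ UTR, was depleted to a like extent in all libraries: 1176, 1119, 1079 and 1178 CPM in the input against 558, 501, 618 and 584 CPM in polysomal RNA, a log2 difference of -1.01 ± 0.09 (FDR 0.00076), or -1.07 ± 0.07 without replicate 3. EEF1A1, the elongation factor that brings aminoacyl-tRNA to the ribosome, stood near the threshold at -0.52 ± 0.15 (FDR 0.0494), and its call was lost without any 1 of the inputs or polysomal replicate 1 or 2 (FDR up to 0.126). SEPW1, a short selenoprotein whose translation needs a UGA codon to be read as selenocysteine, was 22.6, 20.6, 22.5 and 20.6 CPM in the input and 7.37, 5.48, 2.36 and 8.82 CPM in polysomal RNA, a difference of -1.85 ± 0.31 (FDR 0.00685). DDX39B, an RNA helicase of splicing and export, gave -1.60 ± 0.18 (FDR 0.00138). Of the helicases the study is about, the initiation factor EIF4A2 was at -0.20 ± 0.08 (FDR 0.105), and at -0.19 (FDR 0.0208) without replicate 3. Its paralog EIF4A1, at under 5 CPM in each of the 8 libraries, was at -0.64 ± 0.21 (FDR 0.0636), and called lower without polysomal replicate 3 at -0.65 (FDR 0.0253) and without polysomal replicate 4. EIF4A2 had a mean of 258 CPM, and whether the few counts of EIF4A1 cover all of its mRNA was not tested. DDX6, a partner of Ccr4-Not in mRNA repression, was lower, at -0.45 ± 0.08 (FDR 0.00737).

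Mitochondrial ribosomal proteins, which are made in the cytoplasm and imported, were the list with the largest share of higher calls. Of 74 tested, 29 were higher (39.2%, against 6.03% of all genes) and 2 lower, with a median log2 difference of 0.38. Without replicate 3, 60 were higher and 4 lower, where 19% and 18.9% of all genes were called. MRPS18A was 43.0, 39.9, 37.3 and 36.2 CPM in the input and 70.2, 63.7, 60 and 50.7 CPM in polysomal RNA, a difference of 0.65 ± 0.11 (FDR 0.00827). The groups did not overlap and no library stood apart. MRPL3, the member with the most counts, gave 0.36 ± 0.08 (FDR 0.0223), lost without any 1 input or polysomal replicate 2 or 4 (FDR up to 0.0852). Those called lower, MRPS24 at -3.04 and MRPL38 at -1.43, had polysomal means of 0.0718 and 0.951 CPM.

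Proteasome subunits lay on the higher side, whereas calls among the nuclear-encoded subunits of respiratory complex I depended on replicate 3. Of 33 tested proteasome genes 9 were higher (27.3%, against 6.03% of all genes) and 0 lower, with a median of 0.26. Without replicate 3, 25 were higher and 1 lower, where 19% and 18.9% of all genes were called. PSMD8, a regulatory particle subunit, was 214, 212, 191 and 196 CPM in the input and 328, 347, 222 and 307 CPM in polysomal RNA, where replicate 3 was the lowest, and its difference was 0.57 ± 0.13 (FDR 0.0233), or 0.67 ± 0.07 (FDR 3.2e-05) without it. The first of these calls was lost without any 1 input or polysomal replicate 1 or 2 (FDR up to 0.0838). Of 37 complex I genes 2 were higher (5.41%, a share near that of all genes) and 0 lower with 8 libraries, and 26 higher and 1 lower without replicate 3, where 19% and 18.9% of all genes were called. Their median was 0.60, 0.53 and 0.33 in polysomal libraries 1, 2 and 4 and -0.28 in replicate 3. NDUFS5, the complex I member with the most counts, shows this in one gene, at 242, 223, 218 and 212 CPM in the input and 334, 384, 148 and 344 CPM in polysomal RNA, so that its difference of 0.43 (FDR 0.242) became 0.65 (FDR 6.5e-05).

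**Figure D4:**
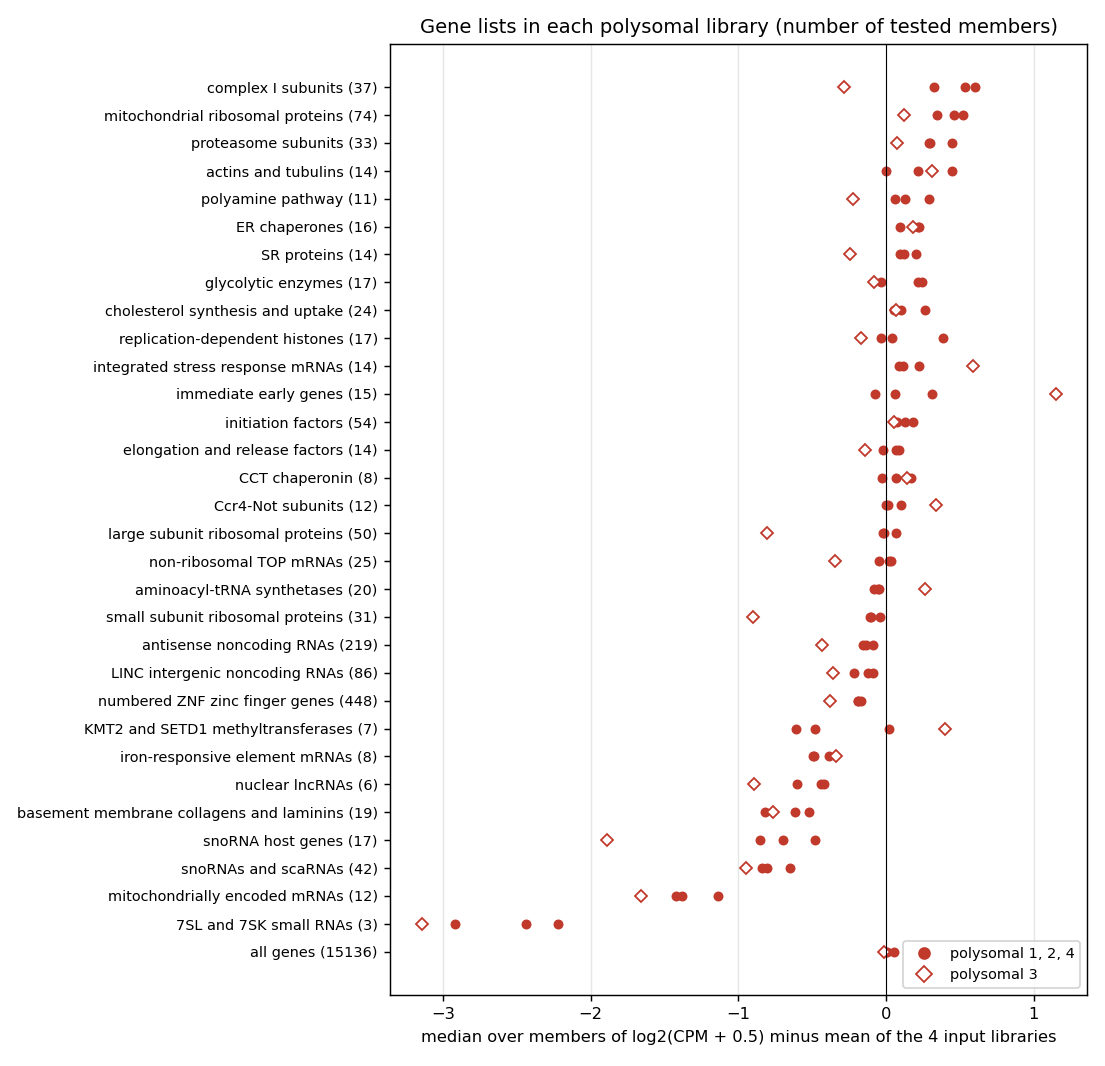
Median over the tested members of each list of log2(CPM + 0.5) minus the mean of the 4 input libraries (horizontal axis) in each polysomal library, filled circles for replicates 1, 2 and 4 and open diamonds for replicate 3, with the number of tested members in brackets. Mitochondrial ribosomal proteins lie at 0.12 to 0.52 and 7SL and 7SK RNAs at -3.14 to -2.22 in all 4 libraries, while replicate 3 leaves the others for complex I (-0.28), ribosomal proteins (-0.80 and -0.90) and immediate early genes (1.15).

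No coding gene of 10 CPM or more was called 2-fold higher. HCFC1R1, a regulator of host cell factor 1, led with 8.85, 8.47, 10 and 7.31 CPM in the input and 22.8, 16.4, 15.6 and 11.9 CPM in polysomal RNA, a log2 difference of 0.94 ± 0.19 (FDR 0.0139) that was lost without input replicate 2 or 4 (FDR up to 0.0519). TLCD1, a membrane lipid protein, gave 0.89 ± 0.16 (FDR 0.00838). TNFRSF1A, the main receptor of tumour necrosis factor, was 19.0, 18.6, 17.6 and 18.1 CPM and then 30.1, 26.1, 44.5 and 28.5 CPM, with 0.82 ± 0.16 (FDR 0.0118). For TLCD1 and TNFRSF1A replicate 3 was the highest polysomal library, and the differences without it were 0.69 ± 0.09 (FDR 0.00011) and 0.61 ± 0.08 (FDR 0.00013). MANF, a secreted survival factor of the endoplasmic reticulum, was higher by a like amount in every library, at 51.1, 47.9, 43.9 and 48.8 CPM and then 76.4, 75.5, 77.2 and 82.7 CPM, a difference of 0.70 ± 0.08 (FDR 0.00175). HSP90B1, the chaperone GRP94 of the same compartment, went the other way at -0.41 ± 0.09 (FDR 0.0162), lost without any 1 input or polysomal replicate 2 (FDR up to 0.0587). TUBG1, gamma tubulin of the centrosome, gave 0.60 ± 0.11 (FDR 0.00837), while ACTB gave 0.28 (FDR 0.195), or 0.33 (FDR 0.0322) without replicate 3, and GAPDH gave 0.08 (FDR 0.801).

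The genes listed as translation initiation factors, among them the kinase EIF2AK2, went both ways. Of 54 tested, 9 were higher (16.7%, against 6.03% of all genes) and 4 lower (7.41%, against 7.7%), with a median of 0.14. Without replicate 3 the counts were 20 and 10 of 56, where 19% and 18.9% of all genes were called. EIF4G2, a relative of eIF4G that acts without eIF4E, was 1464, 1528, 1371 and 1538 CPM in the input and 1839, 2043, 1706 and 1962 CPM in polysomal RNA, a difference of 0.36 ± 0.09 (FDR 0.0357). EIF2S2, the beta subunit of eIF2, gave 0.45 ± 0.10 (FDR 0.0178) and EIF2AK2, the double-stranded RNA kinase PKR, -0.39 ± 0.10 (FDR 0.036). All 3 calls were lost without any 1 input library, those of EIF4G2 and EIF2AK2 also without polysomal replicate 1 or 2, and that of EIF4G2 without polysomal replicate 4 (FDR up to 0.118). The numbered zinc finger genes, a large family of mostly repressive transcription factors, lay on the lower side, with 92 of 448 lower (20.5%, against 7.7% of all genes) and 7 higher (1.56%, against 6.03%) and a median of -0.24. Without replicate 3, 166 of 454 were lower and 20 higher, against 18.9% and 19% of all genes. ZNF483 was 20.7, 18.9, 20.2 and 21.7 CPM in the input and 6.92, 6.86, 9.09 and 9.11 CPM in polysomal RNA, a difference of -1.35 ± 0.13 (FDR 0.0009).

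Lists without a called gene among 8 libraries were the CCT chaperonin (8 tested), glycolytic enzymes (17), the KMT2 and SETD1 methyltransferases (7), mRNAs of the integrated stress response (14) and the polyamine pathway (11). Without replicate 3 they gave 0, 3, 0, 4 and 5 higher and 0, 1, 3, 2 and 0 lower genes. In that fit 19% of all genes were called higher and 18.9% lower, which also applies to the counts without replicate 3 below. ATF4, the stress response factor whose main reading frame follows short upstream ones, stood at 317, 318, 349 and 389.8 CPM in the input and 316, 344, 362 and 454 CPM in polysomal RNA, and the difference of 0.10 ± 0.13 (FDR 0.607) was within the spread. Actins and tubulins had 2 higher genes of 14 (6 without replicate 3). Cholesterol genes had 3 higher of 24 (7 higher and 3 lower without it), ER chaperones 3 higher and 1 lower of 16 (8 and 2), histones 2 and 1 of 17 (6 and 1 of 19), and elongation and release factors 0 and 1 of 14 (3 and 2). SR proteins, Ccr4-Not subunits and immediate early genes had 1 higher each of 14, 12 and 15, and without replicate 3 had 5, 2 and 2 higher and 2, 3 and 0 lower. With so few members, and 6.03% and 7.7% of all genes called, 1 call in a list of this size is near the background. The immediate early genes, which respond to growth and stress signals, had a median of 1.15 in replicate 3 and of -0.07 to 0.31 in the other polysomal libraries.

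The subpolysomal pool of the same cells, set beside these values, gave the lower transcripts different orders. These values come from a fit over all 24 gradient libraries, share the input libraries with the polysomal comparison, and are given without a test. FTL averaged 1688 ± 498 CPM in subpolysomal (SD, n = 4), 429.7 ± 62.7 CPM in input (n = 4) and 118 ± 19.3 CPM in polysomal libraries (n = 3, replicate 3 left out). The order was the same for PABPC1, at 7326 ± 2394, 1214 ± 47.9 and 570.5 ± 33.1 CPM, for RPL41, at 8164 ± 719.8, 1448 ± 62.7 and 649.5 ± 103 CPM, and for NEAT1, at 1291 ± 263, 205 ± 14.7 and 65.7 ± 12.1 CPM. All 4 transcripts had their highest share in the light fractions and their lowest in the heavy ones.

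The long mRNAs were instead below the input in both pools. PRKDC averaged 111 ± 14.0 CPM in subpolysomal, 1763 ± 71.0 CPM in input and 260.4 ± 33.5 CPM in polysomal libraries. DYNC1H1 had 74.1 ± 10.2, 931 ± 175 and 142 ± 22.1 CPM, FBN2 28.2 ± 5.01, 191 ± 16.7 and 49.8 ± 6.43 CPM, and COL4A1 12.8 ± 2.61, 189 ± 5.84 and 122 ± 11.2 CPM. In none of these 4 genes did either pool reach the input level. Over the coding genes of 2400 nt and more the median log2 difference from input was -0.49 for subpolysomal RNA in the 24-library fit and -0.27 for polysomal RNA in the separate fit without replicate 3. Over those of 10000 nt and more the same fits gave -1.70 and -0.87. Of the higher genes, PSMD8 and TNFRSF1A had the reverse order, with PSMD8 at 109 ± 13.1, 217 ± 13.1 and 341 ± 27.8 CPM and TNFRSF1A at 7.07 ± 0.951, 19.5 ± 0.716 and 29.4 ± 1.55 CPM.

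**Figure D5:**
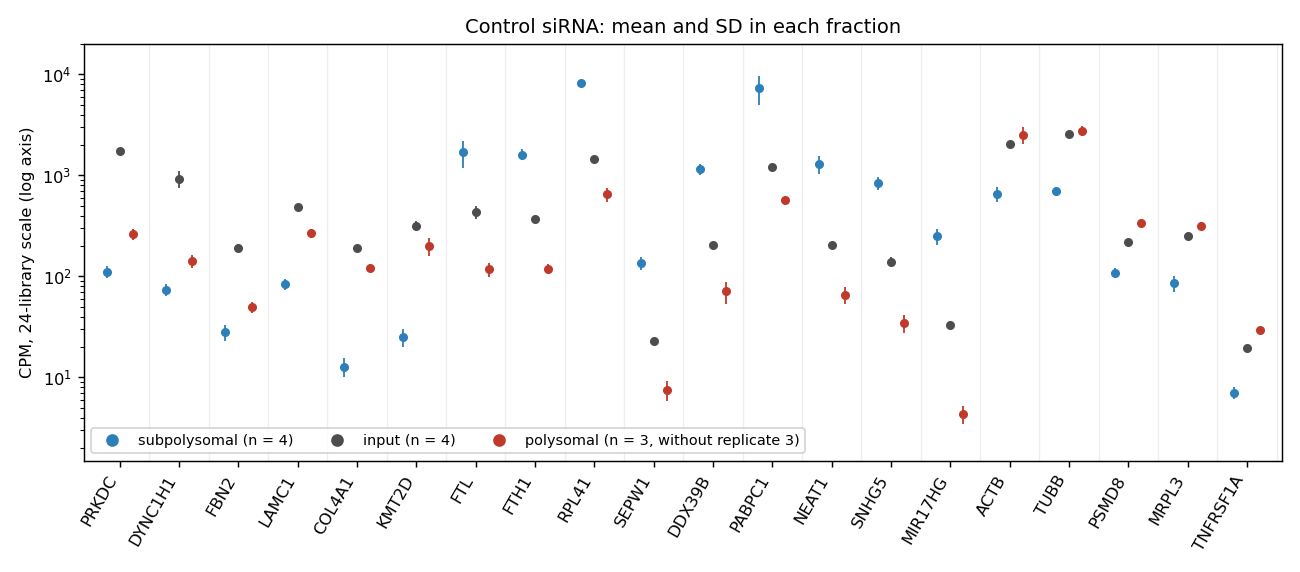
Mean CPM (log axis, scaled over the 24 gradient libraries) with SD of 20 genes in the subpolysomal (blue, n = 4), input (grey, n = 4) and polysomal (red, n = 3, without replicate 3) control siRNA libraries. PRKDC to KMT2D lie below the input in both pools (PRKDC 111, 1763 and 260.4 CPM), FTL to MIR17HG above it in the subpolysomal and below it in the polysomal pool (FTL 1688, 429.7 and 118 CPM), and ACTB to TNFRSF1A below it in the subpolysomal pool.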

How the data were processed

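The authors aligned reads to the human genome (hg19, the same assembly as GRCh37) with TopHat2 and counted them per gene symbol with htseq-count. The deposited values are raw counts for 55765 symbols, with no normalization and replicates kept apart; strand setting and annotation are not given in the sources used here. Input and polysomal control siRNA libraries (4 each) were fitted alone with edgeR 4.0.16 (R 4.3.3): filterByExpr, TMM factors, group means and the quasi-likelihood F-test, two-sided, with Benjamini-Hochberg adjustment over all genes tested. CPM values use the same factors, and medians per library add 0.5 CPM. DESeq2 1.42.0, other scalings, no filter, a replicate block and each library left out in turn were alternatives.

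The same test on simulated data with known changes was checked first. Coding length, UTRs and gene type came from GENCODE release 44 mapped to GRCh37, by symbol: 33529 symbols matched directly, 1920 through an older symbol and 20316 not at all. Named genes were the 8 coding and 4 other genes with the largest calls each way at 10 CPM or more and no overlap of groups, the leading members of each list, and a fixed set; GAS5, MRPS24, MRPL38, MT-ND4, ENC1, DUSP9 and SLC40A1 were added after their values were seen. A result for 1 further gene is not reported here. Members and lists were chosen with earlier results of these data known, so lists carry counts and medians but no test. The authors' table of immunoprecipitation fold changes, immunoprecipitation libraries and TNRC6 libraries were not used.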

Additional observations from a re-analysis of the deposited data

Results flagged for a closer look

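Of 182 groups of 4 libraries (91 named genes, input and polysomal), 11 had 1 library far from the other 3 by Dixon's ratio, a rule that chance meets in about 1 of 20 groups. The total of 11 lies near that rate, but the rate holds for independent groups, and genes measured in the same libraries are not independent. Polysomal replicate 3 was the outlying library in 10 of the 11, so the flags were not spread evenly over the libraries. CNOT1, PVRL4 and DDN are among these 10, but they were already used above to show that the library went against its label. Their flags are therefore no separate evidence. It was far below the others for CNOT1 (26 CPM against 456 to 469), ZNF664 (194 against 471 to 509), NEFM (3310 against 4260 to 4360) and RAB12 (28.6 against 43 to 45.6). It was far above them for PRKDC (788 CPM against 211 to 284), DYNC1H1 (559 against 111 to 157), KCNJ8 (44.7 against 19.2 to 21.1), SRSF4 (305 against 239 to 248), PVRL4 (40.5 against 6.17 to 7.02) and DDN (21 against 5.64 to 7.25). The remaining case was input replicate 2 for SRSF4 (217 CPM against 190 to 194). Whether the library labels of the polysomal replicates numbered 3 were exchanged was not tested beyond the genes given above.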

How the results depend on the processing

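With 8 libraries 913 genes were higher and 1166 lower, 17 and 376 of them by at least 2-fold. DESeq2 gave 1560 and 1721, and 34 by at least 2-fold higher. RLE factors gave 820 and 1194 and library totals alone 1085 and 1077. Without a filter on low counts 600 genes were higher, and 41 by at least 2-fold. With all 24 gradient libraries 951 genes were higher and 1519 lower, and 39 and 561 of them by at least 2-fold. Leaving out each library gave 154 to 2974 higher and 525 to 2957 lower genes, and 4 to 34 and 255 to 484 by at least 2-fold. The highest of these came without polysomal replicate 3, except for the 34, which came without polysomal replicate 4. The 0 calls for a difference between siRNAs stayed at 0 under every alternative run. Except for the run without both libraries 3, each kept a polysomal library whose CNOT1 level opposed its label. Those runs are therefore no separate evidence that the siRNAs did not differ.

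Same-numbered input and polysomal libraries had correlated deviations of 0.26, 0.32, 0.06 and 0.46. The paper describes the input as an aliquot of lysate. The labels do not tie the replicate numbers to a shared lysate, and the main fit left the libraries unpaired. A replicate block gave 705 higher and 986 lower genes, and 12 and 357 by at least 2-fold, and of 59 called named genes 7 lost their call (KCNJ8, SLC29A3, EEF1A1, EIF4G2, LAMA5, ZNF672 and SRSF4). Without polysomal library 3 the correlations were 0.43, 0.30 and 0.61, every library correlated best with its own number, and the block gave 3644 and 3337, and 37 by at least 2-fold higher. A block on the difference between siRNAs gave 0.

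Of 59 called named genes, 34 to 59 kept their call under each alternative, 32 with every library left out, and none changed sign. Neither other scaling moved the median of all genes by more than 0.0197, and leaving out the filter moved it by -0.0908. Each group had 4 libraries, 1 polysomal library had a doubtful label, and genes of a few CPM rest on fewer counts.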
